A study of Mus musculus with 8 samples.

Results

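The interleukin 1 (IL-1) family genes examined here are 10 genes named by symbol: the ligands Il1a, Il1b, Il18 and Il33, the inhibitors Il1rn and Il18bp, and the receptor genes Il1r1, Il1r2, Il1rap and Il1rl1. They were found in the array files by gene name, which gave 21 probes of 56605, for 10 genes of 37074 gene names. RNA levels were measured with single-colour Agilent arrays in adherent peritoneal cells, called peritoneal macrophages by the labels, from wild-type mice (wt, 4 arrays) and Card9-/- mice (4 arrays). Every mouse of both genotypes had been given zymosan, a yeast cell wall preparation, into the peritoneum at 500 mg/kg, with 4 h of exposure. Thioglycolate (1 ml of a 3% solution), which draws leukocytes into the peritoneum, had been injected 4 days before the fluid was collected. Red cells were lysed, and the cells that adhered to plastic within 3 h were kept. The labels give 4 or 5 mice for each group, and each array received Cy3-labelled material made from 0.2 µg of RNA. The labels give neither the age of the mice nor the deleted part of Card9, nor do they say whether an array holds separate or pooled mice, so p-values measure only the spread between these samples. Mice without zymosan were not analysed here, and each comparison is therefore between genotypes after zymosan.

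Il1a and Il1b encode IL-1α and IL-1β, the cytokines that start much of the early inflammatory response, and both bind the receptor encoded by Il1r1, which signals together with the accessory chain encoded by Il1rap through Myd88 to NF-kB. The family is held in check by the receptor antagonist (Il1rn), a decoy receptor without a signalling domain (Il1r2) and a secreted protein that binds IL-18 (Il18bp). Card9 is the adaptor that links the yeast glucan receptor Dectin-1 to NF-kB, and macrophages and neutrophils stimulated with zymosan are a classic source of IL-1β.

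The values are processed signals on a log2 scale relative to the 75th percentile of each array, so that a level of 0 equals that percentile, and the levels of different probes are not comparable with each other. Of the 59305 non-control spots, 47.8% to 56.5% were well above background on an array and 0 were saturated, and the number of arrays limits the precision. At the brighter of its 2 probes, the scanner software detected Card9 itself on 3 of 4 wt arrays and on 0 of 4 from Card9-/- mice. The library labelled wt replicate 1 was the wt array without it, with a processed signal of 4.75, against 38.2 to 1058 on the other wt arrays and 3.60 to 11.9 in Card9-/-. The dimmer probe was detected on 2 of the wt arrays and 0 from Card9-/- mice, and gave a signal of 20.2 in wt replicate 2, close to the 18.5 of Card9-/- replicate 4. Wherever 4 wt values are listed below, the first is from that library. It lay close to wt replicate 2 (Pearson's r = 0.985 over 18595 genes, SD of the difference 0.53), whereas other pairs of wt arrays differed with an SD of 1.30 to 1.91. Both arrays of this pair lay closer to Card9-/- replicate 2 (r = 0.949 and 0.963, SD 0.95 and 0.82) than to wt replicates 3 and 4. Card9-/- replicates 2 and 3 were also close to each other (r = 0.969, SD 0.76). Transcripts of 3 Y-linked genes were present in all 4 Card9-/- libraries and in 0 of the 4 wt libraries, so that sex and genotype cannot be told apart. A single slide held all the wt arrays together with Card9-/- replicate 4, and the other Card9-/- arrays were on 2 further slides. The arrays of the shared slide also had the same scan date, which the other Card9-/- arrays did not have. Slide and scan therefore cannot be fully told apart from genotype. In bulk RNA, fewer cells of a type and less RNA per cell cannot be told apart, which applies to every level below.

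None of the family genes differed between the genotypes beyond the spread between the arrays. For most of the genes the pattern was a wide scatter among the 4 wt arrays and a narrow one among the 4 Card9-/- arrays. Il1r2 (SD 1.71 in wt and 1.66 in Card9-/-) and Il1rl1 (1.58 and 1.44) scattered almost equally in both. The SD was larger in wt for 10 of 10 genes, taking the brightest probe of each, and for 19 of 21 probes, while over all genes 53.9% had the larger SD in wt. The brightest probe reached its highest level in wt replicate 4 for 9 genes and in Card9-/- replicate 3 for the other, Il1rl1. For 7 genes the lowest level was that of the library labelled wt replicate 1. For 6 genes all 4 Card9-/- arrays lay inside the range of the wt arrays. These counts describe the same 8 arrays 10 times, so the genes are not independent observations. They include Il33, well above background on 0 Card9-/- arrays. They also include Il1r1, not well above background in the library labelled wt replicate 1 or in wt replicate 2. The spreads of these genes rest in part on signals near background.

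**Figure D1:**
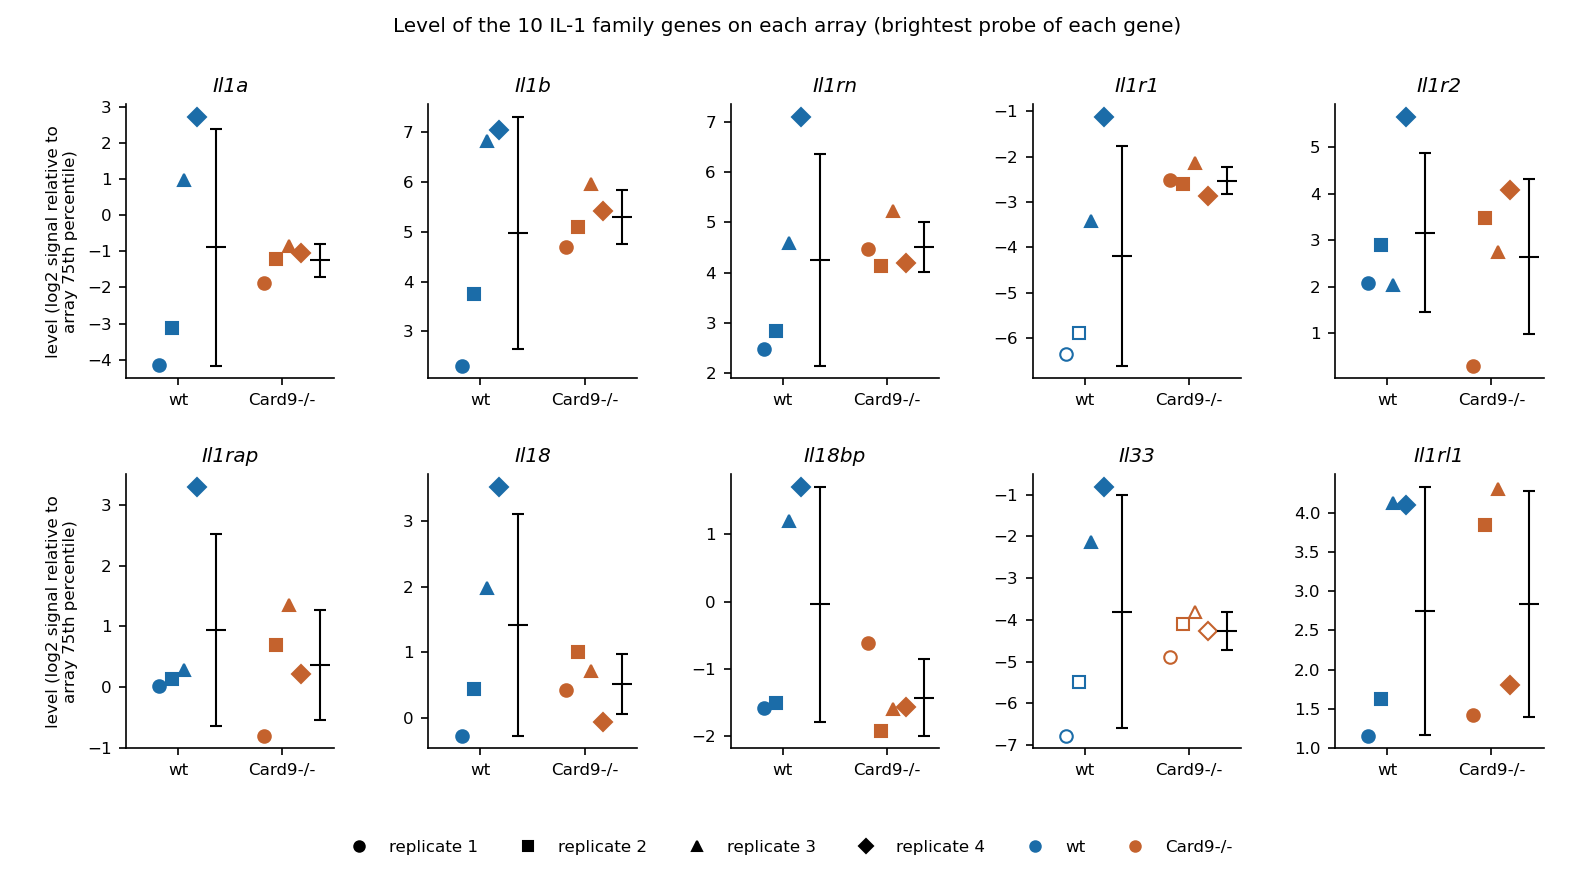
Level of each of the 10 genes on each array (vertical axis, log2 signal relative to the array's 75th percentile, with its own range in each panel), for wt (blue) and Card9-/- (orange), with the mean and SD of 4 arrays in black and hollow symbols where the probe was not well above background. In most panels the 4 Card9-/- arrays sit close together between high and low wt arrays, as for Il1a, where the wt arrays run from -4.16 to 2.73 and the Card9-/- arrays from -1.89 to -0.85.

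Il1a encodes IL-1α, a ligand that is active without cleavage and is released by damaged cells. Its single probe (chr2:129125994-129126053, mm9, minus strand, base 1266 of the transcript) was well above background on all 8 arrays. The wt arrays gave levels of -4.16, -3.13, 0.99 and 2.73, and Card9-/- replicates 1 to 4 gave -1.89, -1.20, -0.85 and -1.05. Thus wt replicates 3 and 4 lay above every Card9-/- array and the other wt arrays below them, and the groups overlapped. The wt arrays spanned 118-fold and the Card9-/- arrays 2.05-fold. The difference, Card9-/- minus wt, was -0.36 (SE 1.36, 95% interval -3.40 to 2.69, limma adjusted p = 0.979). Leaving out wt replicate 4 turned it to 0.85 and leaving out the library labelled wt replicate 1 gave -1.44.

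Il1b encodes IL-1β, which is made as a precursor and cut by caspase-1 before it can signal, and its transcript had 3 probes. The probe of base 703 (chr2:129190880-129190939, mm9, minus strand) is shown as the sequence that reads the Il1b message itself, in lower case because no part of it is singled out. The 250 bases before the start of Il1a and of Il1b follow, because these were the family genes whose levels ran most closely together over the arrays. They are from RefSeq (GRCm38.p6), at chr2:129309973-129310222 and chr2:129371140-129371389, both on the minus strand and read toward the gene. Capitals mark the letters TATAAA, the core of a TATA box, and TGANTCA, the core of an AP-1 site.
Il1b probe of base 703: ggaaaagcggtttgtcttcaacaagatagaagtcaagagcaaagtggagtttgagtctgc
Il1a upstream bases: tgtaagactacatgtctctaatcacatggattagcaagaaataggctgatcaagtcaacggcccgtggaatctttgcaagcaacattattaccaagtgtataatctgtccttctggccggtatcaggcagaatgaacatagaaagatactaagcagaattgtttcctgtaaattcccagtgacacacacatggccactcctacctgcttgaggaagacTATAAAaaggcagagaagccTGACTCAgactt
Il1b upstream bases: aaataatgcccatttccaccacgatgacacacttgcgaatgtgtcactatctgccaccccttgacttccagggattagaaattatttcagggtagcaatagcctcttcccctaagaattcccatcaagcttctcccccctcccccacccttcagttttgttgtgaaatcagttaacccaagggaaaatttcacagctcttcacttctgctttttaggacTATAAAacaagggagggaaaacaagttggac
In Il1a the TATAAA match lay 32 to 27 bases before the start and the TGANTCA match 12 to 6 bases before it. In Il1b the TATAAA match lay 31 to 26 bases before the start.

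Searched on both strands in the 250 bases before the start, TATAAA was found in 12.4% of 32851 mouse promoters and TGANTCA, which reads the same on both strands, in 6.75%. Of the 15 promoters listed for the 10 family genes, 5 held TATAAA and 2 held TGANTCA, the other being that of Il1rn (141 to 135 bases before the start). The NF-kB consensus was found in 3.90% of all promoters and in 1 of the 15, that of Il1r1 (232 to 223 bases before the start). TTGCNNCAA, a C/EBP core, was found in 1.74% of all promoters and in 1 of the 15, that of Il18bp (182 to 174 bases before the start). The motifs were chosen after the levels were known, and a match describes letters, not binding.

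At the brightest Il1b probe (chr2:129190347-129190406, base 1236) the wt levels were 2.31, 3.74, 6.81 and 7.04, and the Card9-/- levels were 4.68, 5.10, 5.96 and 5.42. Again wt replicates 3 and 4 were the highest and the other wt arrays the lowest of the 8, with every Card9-/- array between them. The wt arrays spanned 26.5-fold and the Card9-/- arrays 2.43-fold. The genotype difference was 0.32 (SE 1.00, 95% interval -1.93 to 2.56, limma adjusted p = 0.974). Without the library labelled wt replicate 1 it was -0.57, and without wt replicate 4 it was 1.00.

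At the other Il1b probes the library labelled wt replicate 1 was again the lowest and wt replicate 4 the highest. There Card9-/- replicate 3 lay above wt replicate 3, and the order of the arrays between differed. The probe of base 703 gave 0.41, 1.66, 3.95 and 5.54 in wt and 2.55, 3.63, 4.40 and 2.72 in Card9-/-, a difference of 0.43. The probe of base 629 of an Ensembl transcript (chr2:129195465-129195524) gave -3.05, -1.76, -0.08 and 1.88 in wt and -1.15, -1.97, 0.18 and -1.18 in Card9-/-, a difference of -0.28. The 3 probes therefore did not share the sign of the difference, and on each of them all 4 Card9-/- arrays lay inside the wt range.

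Il18 encodes IL-18, a caspase-1 substrate like IL-1β that stimulates interferon-γ production by T and natural killer cells. Its probe (chr9:50389886-50389942, mm9, plus strand, base 809) was well above background on all 8 arrays. The wt levels were -0.27, 0.44, 1.98 and 3.52, and the Card9-/- levels were 0.42, 1.01, 0.70 and -0.07. Only wt replicates 3 and 4 lay above the Card9-/- arrays, and the groups overlapped. The difference was -0.90 (SE 0.76, 95% interval -2.60 to 0.80, limma adjusted p = 0.855). It was -0.20 without wt replicate 4 and -1.47 without the library labelled wt replicate 1.

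Il33 encodes IL-33, an alarmin stored in nuclei of stromal and epithelial cells that signals through the receptor encoded by Il1rl1. It was the only family gene with no probe that passed the filter, which asked for detection (a signal well above background) on 3 or more of the 4 arrays of a genotype. Its probe of base 159, given here as the sequence that found little signal, crosses at least 1 intron, since its 60 bases cover chr19:30024240-30026507 (mm9, plus strand).
Il33 probe of base 159: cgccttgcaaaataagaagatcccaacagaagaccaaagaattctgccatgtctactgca
That probe was detected on 1 wt array and on 0 from Card9-/- mice. The brighter probe (chr19:30035101-30035160, base 2450) was well above background on wt replicates 3 and 4, at levels of -2.14 and -0.81, and not on the other wt arrays or on any Card9-/- array. No difference between the genotypes is given, since the Card9-/- levels are only bounded by the detection limit of their arrays, between -4.17 and -3.47.

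Il1rn encodes the IL-1 receptor antagonist, which occupies the receptor without signalling, and 2 probes measured it. Its probe of base 562 (chr2:24205094-24205153, mm9, plus strand) is shown as the one inside the message upstream of the brightest probe.
Il1rn probe of base 562: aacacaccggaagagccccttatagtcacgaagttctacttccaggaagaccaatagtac
The brightest probe (chr2:24206125-24206184, base 1593) gave levels of 2.48, 2.85, 4.60 and 7.10 in wt. In Card9-/- it gave 4.47, 4.14, 5.22 and 4.19. Here wt replicate 4 alone stood above all others, and wt replicate 3 lay among the Card9-/- arrays. The difference was 0.25 (SE 0.91, 95% interval -1.81 to 2.31, limma adjusted p = 0.978). It was 1.20 without wt replicate 4 and -0.34 without the library labelled wt replicate 1. At the probe of base 562 the levels were -1.88, -1.80, -0.48 and 3.07 in wt and -0.36, -0.62, 0.69 and -0.27 in Card9-/-, with a difference of 0.13.

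Il18bp encodes the secreted protein that binds IL-18 and keeps it from its receptor. It had the smallest unadjusted p of the family genes and 2 probes with matching patterns, of which that of base 567 (chr7:109164573-109164632, mm9, minus strand) is shown.
Il18bp probe of base 567: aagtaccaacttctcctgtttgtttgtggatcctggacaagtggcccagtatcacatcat
At the brightest probe (chr7:109164100-109164159, base 833) the wt levels were -1.57, -1.51, 1.21 and 1.71. The Card9-/- levels were -0.61, -1.93, -1.59 and -1.57. The high arrays were wt replicates 3 and 4, and the other wt arrays lay at the level of Card9-/-. The difference was -1.38 (SE 0.79, 95% interval -3.16 to 0.39, limma adjusted p = 0.772), and the exact two-sided permutation test gave p = 0.20 over 70 assignments of the arrays, which can reach 0.0286 at the least. At the probe of base 567 the levels were -2.27, -2.43, -0.41 and 0.54 in wt and -2.02, -2.94, -2.63 and -1.76 in Card9-/-. There the difference was -1.20 (exact permutation p = 0.229).

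Il1r1 encodes the signalling receptor for IL-1α and IL-1β. Its probe (chr1:40372667-40372726, mm9, plus strand, base 4383) was detected on all 4 Card9-/- arrays but on 2 of the 4 from wt, so that it passed the filter only through Card9-/-. The Card9-/- levels were -2.51, -2.60, -2.14 and -2.87. In wt the measured levels were -3.41 in replicate 3 and -1.12 in replicate 4, one below and the other above all Card9-/- arrays, and the other wt arrays (-6.36 and -5.89) were not well above background. The fitted difference was 1.66 (SE 1.02, 95% interval -0.62 to 3.95, limma adjusted p = 0.789, exact permutation p = 0.314). Its size and sign rest on the signals below background, since the measured wt arrays lay on either side of Card9-/-. The value was 0.94 without the library labelled wt replicate 1 and 2.69 without wt replicate 4. When limma weighted the arrays by how closely they followed their group, Il1r1 was the only family gene to pass the threshold, higher in Card9-/- by 3.38 (adjusted p = 0.0365). That fit called 4.33% of all genes and gave the library labelled wt replicate 1 and wt replicate 2 weights of 3.05 and 8.85, against 0.19 and 0.35 for wt replicates 3 and 4, so that most of the wt weight lay on the arrays where Il1r1 was not well above background. Normexp background correction reduced the difference to 0.59.

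Il1r2 encodes the decoy receptor, which binds IL-1 without signalling and is abundant in neutrophils. Its probe of base 631 is shown because it disagreed with the brightest probe. Its 60 bases cover chr1:40168971-40171918 (mm9, plus strand) and so cross at least 1 intron.
Il1r2 probe of base 631: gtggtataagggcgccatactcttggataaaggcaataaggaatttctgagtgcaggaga
The brightest probe (chr1:40182006-40182066, base 1278) gave levels of 2.07, 2.90, 2.03 and 5.65 in wt and 0.30, 3.47, 2.74 and 4.08 in Card9-/-. Card9-/- replicate 1 was the lowest of the 8 arrays and wt replicate 4 the highest, so this gene scattered in both genotypes. The difference was -0.51 (SE 1.00, 95% interval -2.75 to 1.72, limma adjusted p = 0.949). The probe of base 631 gave 0.22, 0.75, -1.68 and 3.87 in wt and 0.16, 2.39, 2.77 and 1.38 in Card9-/-. Its difference was of the opposite sign, at 0.89 (exact permutation p = 0.543), and relative to each probe's own mean the probes parted most in wt replicate 3.

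Il1rap encodes the accessory chain shared by the receptors for IL-1, IL-33 and IL-36, and 4 probes covered its transcripts. The brightest (chr16:26717577-26717636, mm9, plus strand, base 4318 of the NM_008364 transcript) gave levels of 0.02, 0.13, 0.28 and 3.30 in wt. In Card9-/- it gave -0.80, 0.69, 1.35 and 0.22. Apart from wt replicate 4 the wt arrays were close together, inside the Card9-/- range. The difference was -0.57 (SE 0.78, 95% interval -2.33 to 1.20, limma adjusted p = 0.919), and 0.22 without wt replicate 4. The probe of the NM_134103 transcript (chr16:26701498-26701557, base 1409) gave -2.63, -2.70, -1.90 and 1.16 in wt and -2.58, -2.09, -0.60 and -1.66 in Card9-/-, and the difference was -0.21. A probe of the NM_001159318 transcript (base 3945) was detected on 3 wt and 2 Card9-/- arrays, with a difference of 0.46. The remaining probe (base 4378 of an Ensembl transcript) was above background on 1 array of each genotype and did not pass the filter.

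Il1rl1 encodes ST2, the receptor for IL-33, as a membrane form and as a shorter secreted form, and it is a marker of mast cells. The brightest probe (chr1:40522187-40522246, mm9, plus strand, base 5226 of the longer transcript, NM_001025602) gave levels of 1.16, 1.62, 4.12 and 4.10 in wt and 1.42, 3.84, 4.30 and 1.81 in Card9-/-. In each genotype 2 arrays were high and 2 were low, and the groups overlapped over nearly their whole range. The difference was 0.093 (SE 0.90, 95% interval -1.94 to 2.12, limma adjusted p = 0.993). The other probe of the longer transcript (base 3053) gave -2.78, -2.67, -1.07 and -1.59 in wt and -3.28, -0.67, -0.03 and -1.89 in Card9-/-. The probe of the shorter transcript (NM_010743, chr1:40504769-40504828, base 2583) gave -3.73, -3.30, -0.69 and -0.89 in wt and -2.11, -0.93, -0.17 and -3.66 in Card9-/-, where the last value was not well above background. Both transcripts were thus high on the same arrays, wt replicates 3 and 4 and Card9-/- replicates 2 and 3. They parted in Card9-/- replicates 1 and 4. Replicate 1 lay lowest in Card9-/- at the longer transcript's probes, and replicate 4 lay lowest at that of the shorter.

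**Figure D2:**
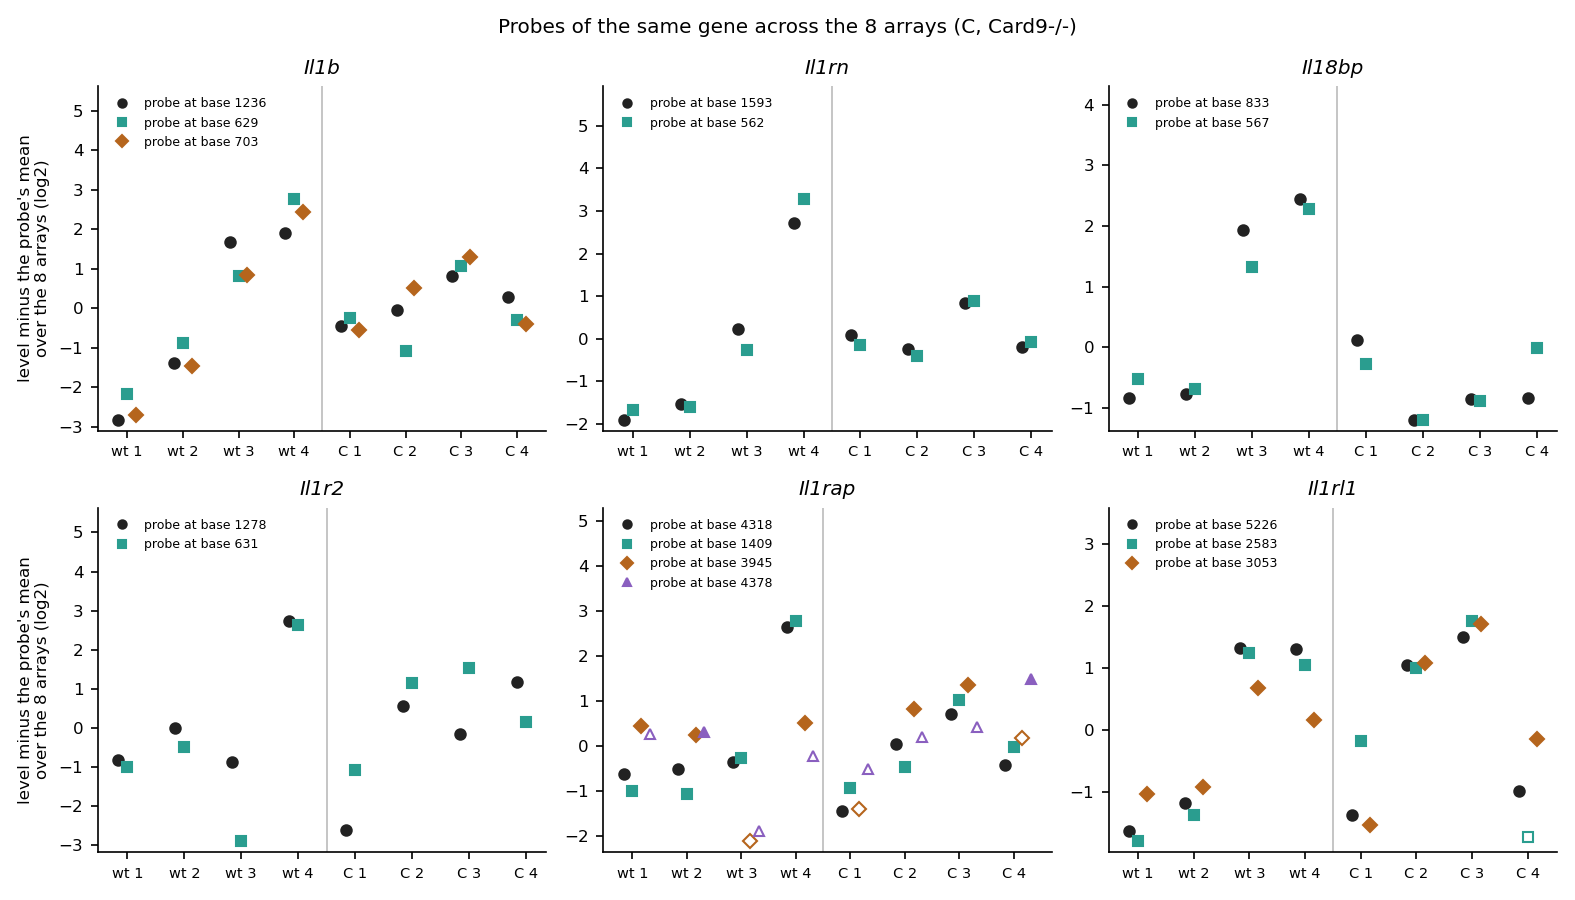
Level of each probe on each array minus that probe's mean over the 8 arrays (vertical axis, log2), for the 6 genes with several probes of which at least 1 passed the filter, with hollow symbols where a probe was not well above background. Probes of Il1rn and Il18bp moved together over the arrays. Those of Il1b shared their lowest and highest array but parted in Card9-/- replicate 2. There the probe of base 703 lay above its own mean and that of base 629 below it. The Il1r2 probes parted most in wt replicate 3, where both lay below their own means by unequal amounts.

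Taking the family together, 9 of the 10 genes and 18 of the 21 probes passed the filter, Il1r1 only through Card9-/-. Of the 9, 0 passed the threshold of an adjusted p of 0.05 in limma, where 0.0269% of the 18605 genes tested did (5 genes), and 0 had an unadjusted p under 0.05, where 7.23% of all genes did. At 0 of 21 probes were the 2 genotypes free of overlap, which was the case for 5.22% of all genes. By sign, 4 genes were higher and 5 lower in Card9-/-, with a median difference of -0.36 against -0.088 over all genes. That median was -0.87 without the library labelled wt replicate 1 and 0.54 without wt replicate 4. With all arrays kept and the mean of each gene's probes it was 0.16 (5 higher and 4 lower). Its sign thus rested on single arrays and on the choice of probe. On the slide that held both genotypes, with Card9-/- replicate 4 as its only Card9-/- array, the median was -0.16, Il18bp differed by -1.53 and Il18 by -1.48. These values have no replicate in Card9-/- and are given without a test.

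**Figure D3:**
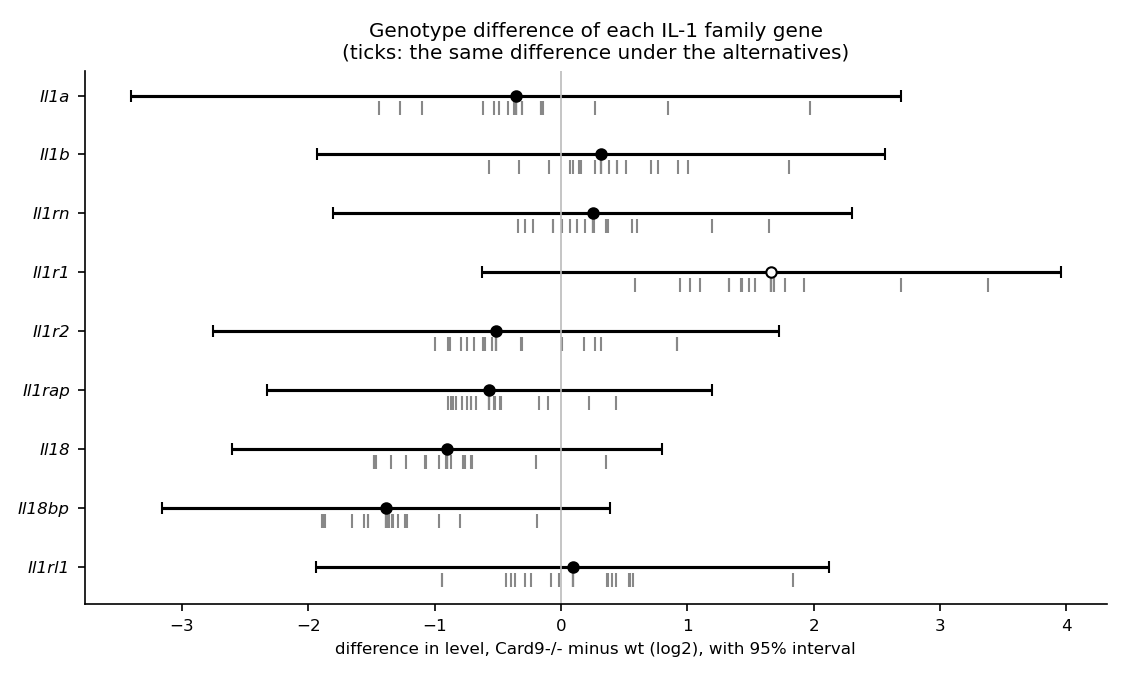
Difference in level between the genotypes for the 9 genes that passed the filter (horizontal axis, Card9-/- minus wt, log2; point and 95% interval from limma), with small ticks for the same difference under each alternative processing and a hollow point for Il1r1, not well above background on 2 wt arrays. Every interval includes 0, and the ticks lie on both sides of 0 except for Il1r1 and Il18bp.

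Whether an inhibitor and its partner shifted unequally was tested as the difference of their log2 levels within each array, expressed relative to the mean of that difference over the 8 arrays. For Il1rn relative to Il1b the wt values were 0.92, -0.14, -1.46 and 0.82 and the Card9-/- values were 0.54, -0.21, 0.012 and -0.48. The Card9-/- values lay within the wt range, and the genotype difference was -0.066 (exact permutation p = 0.914, and 0.914 adjusted over the 3 ratios).

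For Il1r2 relative to Il1r1 the values were 2.16, 2.52, -0.83 and 0.50 in wt and -3.46, -0.20, -1.39 and 0.68 in Card9-/-. The 2 highest values belong to the wt arrays on which Il1r1 was not well above background. The difference was -2.18 (exact permutation p = 0.143, adjusted 0.429), a size set in part by those signals below background, and -0.41 on the slide that held both genotypes. For Il18bp relative to Il18 the values were 0.40, -0.25, 0.93 and -0.11 in wt and 0.67, -1.23, -0.60 and 0.20 in Card9-/-. That ratio differed by -0.48 (exact permutation p = 0.371, adjusted 0.557), with overlapping groups, and by -0.046 on the shared slide.

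**Figure D4:**
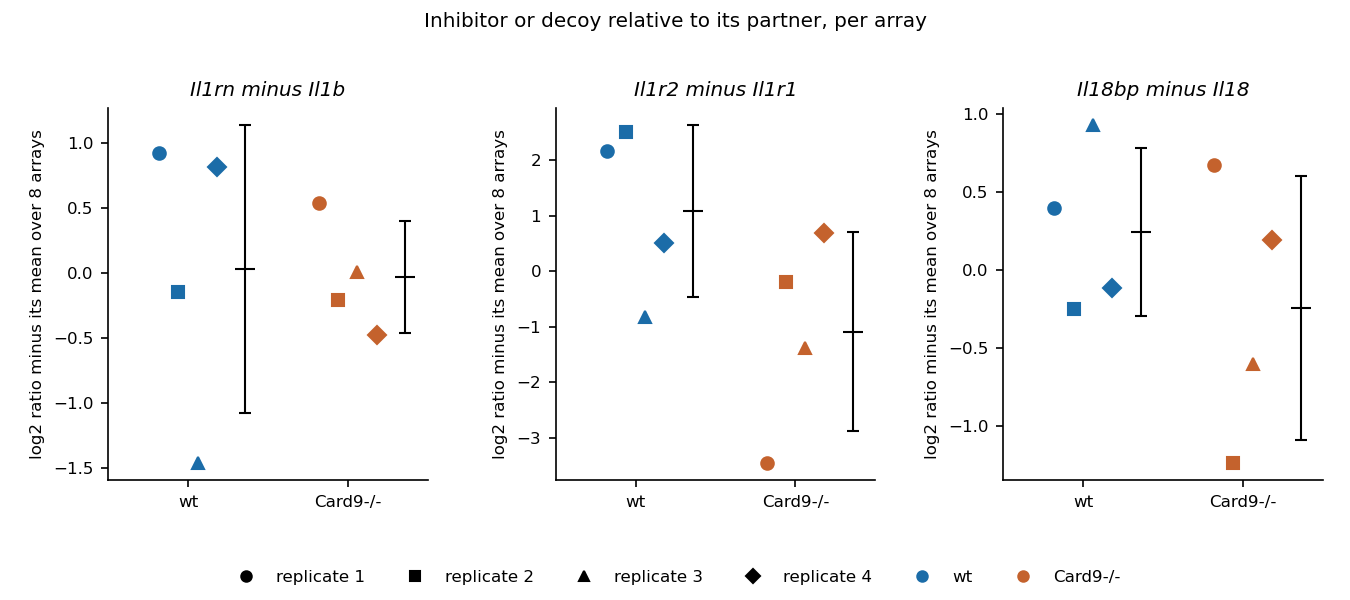
Log2 ratio of an inhibitor or decoy to its partner on each array (vertical axis, relative to the ratio's mean over the 8 arrays), for wt (blue) and Card9-/- (orange), with the mean and SD of 4 arrays in black. The groups overlap in all 3 panels, and the 2 highest values of Il1r2 to Il1r1, 2.16 and 2.52, are from wt arrays where Il1r1 was not well above background.

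Markers of the cell types that peritoneal fluid can hold varied over the arrays as well. Macrophage markers (8 of 9 tested, 0 past the threshold) had mean levels of 0.41, 0.55, 6.11 and 4.83 in wt and 1.87 to 2.55 in Card9-/-. The markers of resident peritoneal macrophages (8 of 10 tested) ran from -2.68 to 6.05 in wt and from -1.77 to -0.29 in Card9-/-. Both lists were thus high in wt replicates 3 and 4, the arrays on which Il1a, Il1b, Il18 and Il18bp were highest, and 0 of their markers were below background on every array. The part of macrophage content in these levels was not tested.

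Neutrophil markers (14 of 14 tested) had mean levels of 1.48, 1.92, 1.59 and 4.54 in wt and 0.24, 2.54, 2.62 and 3.53 in Card9-/-. The brightest Il1r2 probe had its highest and lowest levels on the same arrays, wt replicate 4 and Card9-/- replicate 1. Mast cell markers (8 of 10 tested) had mean levels of 0.77, 1.70, 4.64 and 3.95 in wt and 0.29, 3.81, 4.00 and 1.60 in Card9-/-, and the 4 arrays high in them were the 4 arrays high in Il1rl1. Fibroblast markers (4 of 6 tested) were highest on the same 4 arrays as mast cell markers. Their mean levels there were 1.93 and 0.61 in wt replicates 3 and 4 and 1.48 and 1.00 in Card9-/- replicates 2 and 3. On the other arrays they ran from -1.96 to -0.48. The part of neutrophils, mast cells and fibroblasts in the levels of Il1r2 and Il1rl1 was not tested.

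T cell and natural killer cell markers separated the genotypes, although 0 single markers passed the threshold. The mean level of natural killer cell markers (9 of 10 tested) was -1.04 to -0.12 in wt and 0.44 to 2.92 in Card9-/-, and that of T cell markers (11 of 12 tested) was 0.62 to 1.1 in wt and 1.71 to 3.09 in Card9-/-. The part of lymphocytes in the levels of the family genes was not tested. Monocyte markers (6 of 6 tested) ran from 2.06 to 4.57 in wt and from 3.21 to 3.58 in Card9-/-, wide in wt and narrow in Card9-/- like most family genes. Red cell markers (6 of 6 tested, 0 past the threshold) were present despite the lysis, all 6 higher in Card9-/- by value. Their mean levels were 5.18, 3.43, 5.15 and 0.91 in wt and 6.30, 4.18, 3.97 and 8.23 in Card9-/-. The part of red cell RNA in the levels of the family genes was not tested.

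**Figure D5:**
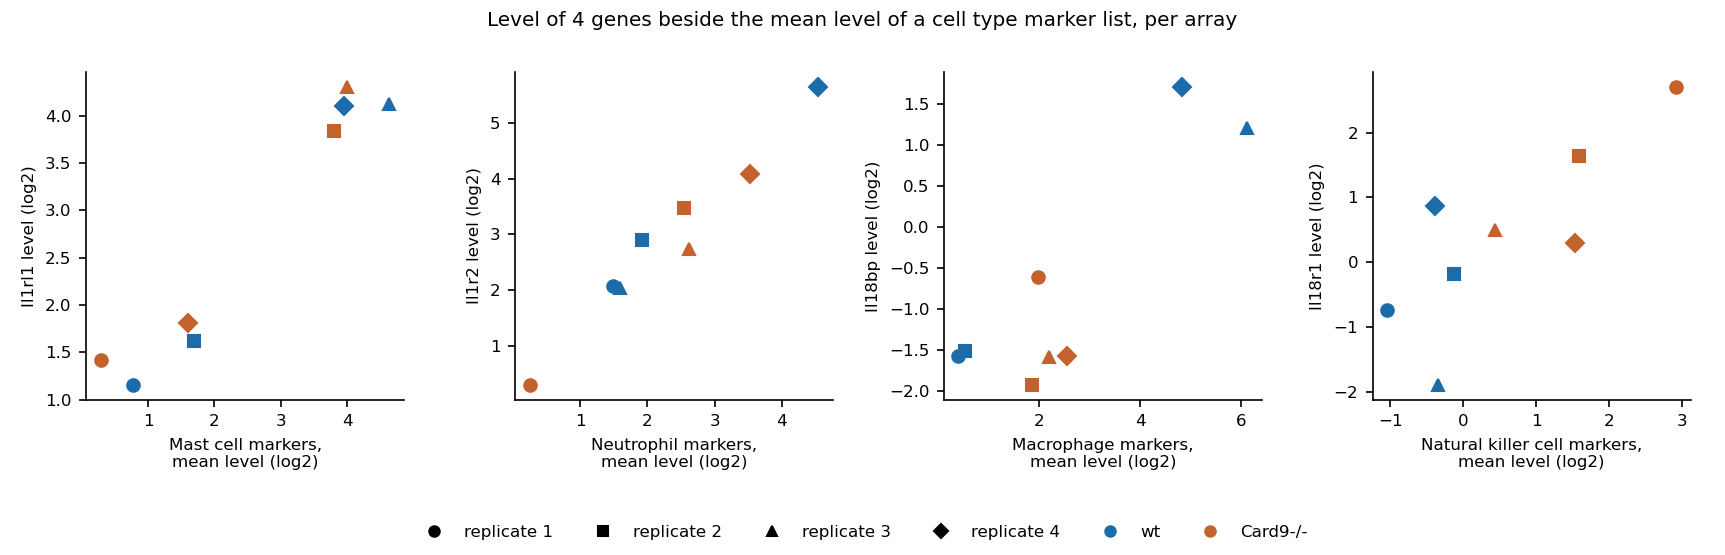
Level of Il1rl1, Il1r2, Il18bp and Il18r1 (vertical axes, log2) against the mean level of a marker list (horizontal axes, log2), 1 symbol per array, wt in blue and Card9-/- in orange. The 4 arrays with mast cell markers of 3.81 or more are those with Il1rl1 at 3.84 or more, and wt replicate 4 is highest in both neutrophil markers and Il1r2.

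Over the 8 arrays the levels of Il1a and Il1b ran closely together (Pearson's r = 0.95), followed among pairs of family genes by Il1a with Il1rn (0.92), whereas Il1r2 and Il18bp had the lowest coefficient (0.25). These coefficients describe arrays that share their composition and scaling. Of all genes tested with a symbol, the most alike in level over the 8 arrays was Anxa1 for Il1a (0.983), a phospholipid-binding protein of leukocytes. It was Vis1 for Il1b (0.992), ahead of the transcription factor Klf6 (0.990) and of F3 (0.986), the tissue factor that starts coagulation. Lilrb4a, an inhibitory receptor of myeloid cells, was nearest to Il1rn (0.991), ahead of the cytokine gene Tnfsf14 (0.984). Il1rl2, the IL-36 receptor, was nearest to Il1r1 (0.972), and the B cell marker Ms4a1 came next to it (0.972).

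Rnf24 was nearest to Il1r2 (0.984), followed by Wfdc21 (0.984). Slfn4 was nearest to Il1rap (0.979), Fkbp10 to Il18 (0.971) and Xkr8 to Il18bp (0.981). For Il1rl1 it was Tph1 (0.993), the serotonin-synthesising enzyme of mast cells, ahead of Ccdc80 (0.987).

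The other genes of the pathway were examined in 4 lists, and 0 genes of any list passed the threshold in either direction. With array weights, the fit that called 4.33% of all genes, 3 other ligands or receptors of the family, 1 signalling gene and 1 target were called, each higher in Card9-/-. Of the other ligands and receptors of the family, 5 of 12 were tested, all 5 of them higher in Card9-/- by value, with a median difference of 1.41. A dim gene could enter through the genotype in which it was high, and 2 of the 12 were well above background on all 8 arrays. Without the filter 9 were higher and 2 lower, with a median of 0.46 against 0.32 over all genes. Il18r1, which encodes the ligand-binding chain of the IL-18 receptor, had levels of -0.75, -0.19, -1.89 and 0.87 in wt and 2.70, 1.64, 0.49 and 0.29 in Card9-/-. The difference was 1.77 (SE 0.70, limma unadjusted p = 0.0321, adjusted p = 0.627), and the groups overlapped through wt replicate 4. The mean level of natural killer cell markers was also higher in Card9-/-, and the part of these cells in the level of Il18r1 was not tested. Sigirr, an inhibitory receptor of the family, had levels of -0.088, -0.090, 0.90 and 0.54 in wt and 1.81, 1.1, 1.24 and 0.60 in Card9-/-. It differed by 0.87 (SE 0.40, limma adjusted p = 0.698), and only Card9-/- replicate 4 lay within the wt range.

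Genes of maturation and release, the inflammasome sensors, caspases, gasdermin and proteases that process the ligands, were tested for 17 of 19, with 5 higher and 12 lower by value and a median difference of -0.15. Without wt replicate 3 the split was 10 and 7 with a median of 0.16, with array weights 10 and 7 with 0.65, and with the close wt pair averaged the median was -0.48. Casp4, which encodes the inflammatory caspase-11 of the mouse, had levels of 5.14, 5.34, 5.00 and 6.28 in wt and 3.90, 5.23, 4.76 and 4.74 in Card9-/-. Its difference was -0.78 (SE 0.43, limma adjusted p = 0.762). Aim2, a sensor of cytosolic DNA, was between 2.13 and 2.40 in wt and between 1.04 and 2.00 in Card9-/-. Its groups did not overlap, which was the case for 5.22% of all genes. The difference of -0.59 (SE 0.34) did not pass (limma adjusted p = 0.775).

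Receptor signalling genes were tested for 19 of 19, with 7 higher and 12 lower by value and a median of -0.14. Quantile normalization turned this to 11 and 8 with a median of 0.095, and leaving out Card9-/- replicate 4 to 10 and 9 with 0.020. Myd88, the adaptor of the IL-1 and Toll-like receptors, had levels of 3.74, 3.77, 4.30 and 4.80 in wt and 3.14, 3.84, 4.26 and 3.12 in Card9-/-, and its difference was -0.56 (SE 0.42, limma adjusted p = 0.837). Mapk14, the p38 kinase, differed by -0.59 (SE 0.41, limma adjusted p = 0.825), with the highest level in wt replicate 3 (3.78). Targets of IL-1 signalling were tested for 15 of 15, with 2 higher and 13 lower by value and a median of -0.67, against -0.088 over all genes. The median was -0.24 without wt replicate 4, -0.40 without wt replicate 3, -1.1 without the library labelled wt replicate 1 and -0.37 with quantile normalization (6 higher and 9 lower), and array weights turned it to 0.11 (10 higher and 5 lower).

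Icam1, the adhesion molecule that leukocytes bind on activated cells, had levels of 6.49, 6.11, 7.0 and 5.21 in wt and 3.80, 5.69, 5.00 and 5.02 in Card9-/-. Its wt replicate 4, high in nearly every family gene, was the lowest wt array for Icam1. The difference was -1.33 (SE 0.52, limma unadjusted p = 0.0313, adjusted p = 0.627). Zc3h12a, a ribonuclease that degrades inflammatory messages, had levels of -0.65, -1.0, 0.53 and 0.53 in wt and -1.21, -1.11, -0.90 and -1.11 in Card9-/-. It differed by -0.93 (SE 0.43, limma adjusted p = 0.701), with the groups overlapping at wt replicate 2.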

How the data were processed

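The deposited scanner files hold intensity values. Per the file headers, the software (Agilent Feature Extraction, version 10.7.1.1) subtracted background and detrended each array, replaced dim spots by surrogates and did no scaling across arrays. In the series matrix the authors deposited log2 values, which look quantile normalized. Of its 56745 lines, 7075 carry the value of the neighbouring identifier, so it served only as an alternative, with the 49670 others. Processed signals were taken to log2 and the array's 75th percentile over non-control spots was subtracted. Probes detected (well above background) on 3 or more of the 4 arrays of either genotype were kept (28169), and the brightest probe over all arrays stood for each gene (18605 genes).

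The test of genotype was limma's (version 3.58.1, R 4.3.3; lmFit, eBayes, two-sided, Benjamini-Hochberg over all genes). Single probes and ratios were compared by exact two-sided permutation over 70 assignments. Gene names came from the accessions of the files (32994 probes), a symbol (10224) or a synonym (520) in the RefSeq table of GRCm38.p6, or the files (12867). Probe coordinates are those of the files, on mm9, and exon and UTR annotation was not used here.

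Tried as alternatives were normexp background correction, 2 other scalings, 2 other filters, 2 other uses of probes, averaging the library labelled wt replicate 1 with wt replicate 2, slide as a block, the slide holding both genotypes, array weights, the replicate number as a block, the series matrix and leaving out each array. Groups were read from the labels. All 10 genes were named with all probes, and of each other list the 2 genes with the smallest p, leaving out sex-chromosome genes, plus the genes most alike in level. The genes, lists and motifs were chosen with earlier results of these data known.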

Additional observations from a re-analysis of the deposited data

Results flagged for a closer look

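In 48 groups of 4 arrays (probe by genotype, and ratios), 2 had 1 array that stood far from the others relative to the range of the group, and chance gives this in about 1 of 20 groups. At the Il1rap probe of base 4318, wt replicate 4 had a level of 3.30, against 0.02 to 0.28 on the other wt arrays. At the Il1rap probe of base 3945, wt replicate 3 had a level of -6.65, where the probe was not well above background, against -4.27 to -4.0 on the other wt arrays.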

How the results depend on the processing

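Il18bp was lower in Card9-/- by value under all 21 alternatives, from -1.89 to -0.80 with 1 array left out and -0.19 with array weights. The 21 are not separate checks of the direction. The 2 other filters, the fit over all kept probes and the replicate block left its value at -1.38. Slide as a block and the shared slide gave the same -1.53. How many of all genes kept their sign was not counted. Il1r1 was higher under all but that limited to probes above background on all 8 arrays, which leaves it out, but its sign rests on wt signals below background. For Il1r1 too, several alternatives left the value unchanged at 1.66. The genes past the threshold over all genes, 5 in the fit reported, were 0 among probes above background on all 8 arrays, 11 among all kept probes, 0 with slide as a block, 0 within the shared slide, 3 with the replicate block and 806 with array weights, and 5 to 6 when 1 array was left out. Family genes past the threshold numbered 0, except 1 with array weights, and 0 to 0 with 1 array left out. Array weights also moved the family's median difference to 1.65 (range with 1 array left out -0.87 to 0.54), Il1a to 1.97, Il1b to 1.81, Il1rn to 1.65, Il1rl1 to 1.84, Il18 to 0.36, Il1rap to 0.44 and Il1r2 to 0.0051. The Il1rn to Il1b ratio turned to 0.061 with normexp and 0.052 with the close wt pair averaged (-0.56 to 0.23 with 1 array left out). Averaging that pair turned Il1b to -0.33, Il1rn to -0.28 and Il1rl1 to -0.36. Slide as a block and the shared slide gave 0.92 for Il1r2, -0.94 for Il1rl1 and -0.064 for Il1rn. Il1r2 was 0.19 with the mean of its probes, and Il1rl1 was -0.019 with normexp and -0.083 with median scaling. With 1 array left out, differences ranged from -1.44 to 0.85 for Il1a, -0.57 to 1.00 for Il1b, -0.34 to 1.20 for Il1rn, -0.99 to 0.31 for Il1r2, -0.90 to 0.22 for Il1rap and -0.44 to 0.57 for Il1rl1. The cause of these changes was not tested. The ratio of Il1r2 to Il1r1 ranged from -2.82 to -1.39 and that of Il18bp to Il18 from -0.79 to -0.15 with 1 array left out. On the shared slide these ratios were -0.41 and -0.046, and with normexp -1.20 and -0.33. Median scaling moved the median of all genes from -0.088 to -0.26 and normexp to 0.031. Replicate numbers did not pair the arrays (correlations of deviations -0.13, 0.25, -0.12 and -0.28), and the replicate block changed no call of a family gene. Dim probes (Il33, Il1r1 in wt, part of Il1rap) are limited by signal over background.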
